A study of Mus musculus with 4 samples.

Results

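The genes described here are the 10 that set, maintain or remove DNA methylation, or supply the cofactor for its removal, and that include the methylation genes recurrently mutated in acute myeloid leukemia (AML): Dnmt1, Uhrf1, Dnmt3a, Dnmt3b, Tet1, Tet2, Tet3, Tdg, Idh1 and Idh2. They were chosen by name and role, and each was found once among the 27179 genes of the expression table. The study asked which transcripts differ between wild type (WT) and CD274-null leukemia-initiating cells (LICs) of a murine AML, CD274 (PD-L1) being the surface ligand of the T cell checkpoint receptor PD-1. Bone marrow LICs of C57BL/6 mice, aged 6 weeks by the labels, were sorted and sequenced, with 2 libraries labelled WT and 2 labelled CD274 knockout. All 4 libraries share the same oncogene: by the study's methods, lineage-negative fetal liver cells received MLL-AF9 from a retrovirus that also encodes YFP and were transplanted into irradiated recipients, and LICs were the Mac-1+/c-Kit+ cells. The retroviral promoter rather than the endogenous locus drives the fusion gene, the recipients keep host cells, and the sources used here do not say whether the 2 libraries of a label came from separate mice, so that the p-values measure only the spread between these libraries. The labels describe sorted cells, whereas the sequencing methods speak of RNA from tissue.

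DNA methylation in mammals is laid down on cytosines of CpG dinucleotides by DNMT3A and DNMT3B and copied onto the new strand after replication by DNMT1, which UHRF1 recruits to hemimethylated CpGs. The TET dioxygenases oxidise 5-methylcytosine with iron and 2-oxoglutarate, and the glycosylase TDG excises the most oxidised products so that base excision repair can restore an unmodified cytosine. IDH1 in the cytosol and IDH2 in mitochondria make 2-oxoglutarate from isocitrate; their mutant forms in AML make 2-hydroxyglutarate, which inhibits the TET enzymes. DNMT3A, TET2, IDH1 and IDH2 are among the most frequently mutated genes in human AML, whereas the MLL-AF9 model needs no mutation in them.

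The values were FPKM, fragments per kilobase of transcript scaled to the depth of mapped reads. They rested on 8843737 to 11568565 mapped reads per library, totals recovered from the FPKM values themselves. These totals are lower than the reads per sample and the mapping rate in the study's methods imply. The targeted gene did not separate the labels: Cd274 was at 2.80 and 0.945 FPKM in the libraries labelled WT and at 1.43 and 2.29 FPKM under the CD274-null label (log2 fold change 0.09), so every direction below is between labels. Whether the deleted part of the gene is covered by these reads was not tested. Transcripts of the sort markers were present throughout, Itgam (Mac-1) at 100.2 to 174 FPKM and Kit at 6.59 to 19.5, with the lowest Kit in WT replicate 1. Of the 10 genes listed for the gate 6 had a fold change above 0 and 4 below: Mpo, a granule gene of myeloid progenitors, was called higher (444 and 403 FPKM against 1427 and 925), while Ctsg, another granule gene, had a log2 fold change of -0.79 and was not called. The libraries also differed in maturity markers within a label: 11 neutrophil genes summed to 43900 FPKM in WT replicate 1 and 8863 in WT replicate 2, against 18456 and 31568 in the CD274-null libraries, and S100a8 and S100a9 were the highest of that list. The B cell genes Ms4a1, Pax5 and Ebf1 were at 0 in both WT libraries and at 0 to 0.416 FPKM in the CD274-null libraries, and Cd79b, the highest B cell gene, was at 12.8 and 36.2 FPKM against 35.6 and 37.4, while the plasma cell gene Jchain was at 0.370 and 0.514 FPKM against 12.3 and 10.5 (called higher, adjusted p = 0.0369 from limma) and its list of 8 summed to 178 and 68.1 FPKM against 148 and 119, nearly all of it Xbp1 (177 and 66.8 FPKM against 133 and 106). T cell genes summed to 3.77 and 3.28 FPKM against 6.14 and 3.06, erythroid genes to 2.92 and 55.7 against 4.85 and 0.589, and macrophage genes to 147 and 144 against 90.0 and 106. Of the 6 macrophage genes tested 3 were above 0 and 3 below, and Vcam1, called lower, held most of their sum (117 and 92.3 FPKM against 53.7 and 59.8). In bulk RNA, a smaller share of cells of a type and less RNA per cell cannot be told apart, and the part of these markers in the results below was not tested.

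In LICs the methylation machinery was expressed over a wide range. By mean FPKM, a level per transcript length, the order was Idh2, Dnmt1, Uhrf1, Idh1, Tet2, Tet3, Dnmt3a, Dnmt3b, Tdg and Tet1. Idh2 was above 94.7% to 96.7% of the genes in each library and Dnmt1 above 92.3% to 96.1%, whereas Tet1 was at or near 0. Most neighbours in this order could not be ranked: only Tet3 and Dnmt3a, Dnmt3a and Dnmt3b, and Tdg and Tet1 had ranges over the 4 libraries that did not overlap. Tet2 stood above Tet3 in 2 libraries and below it in the other 2. Dnmt3b stood above Tdg in 4 of 4 libraries, although their ranges touched.

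**Figure D1:**
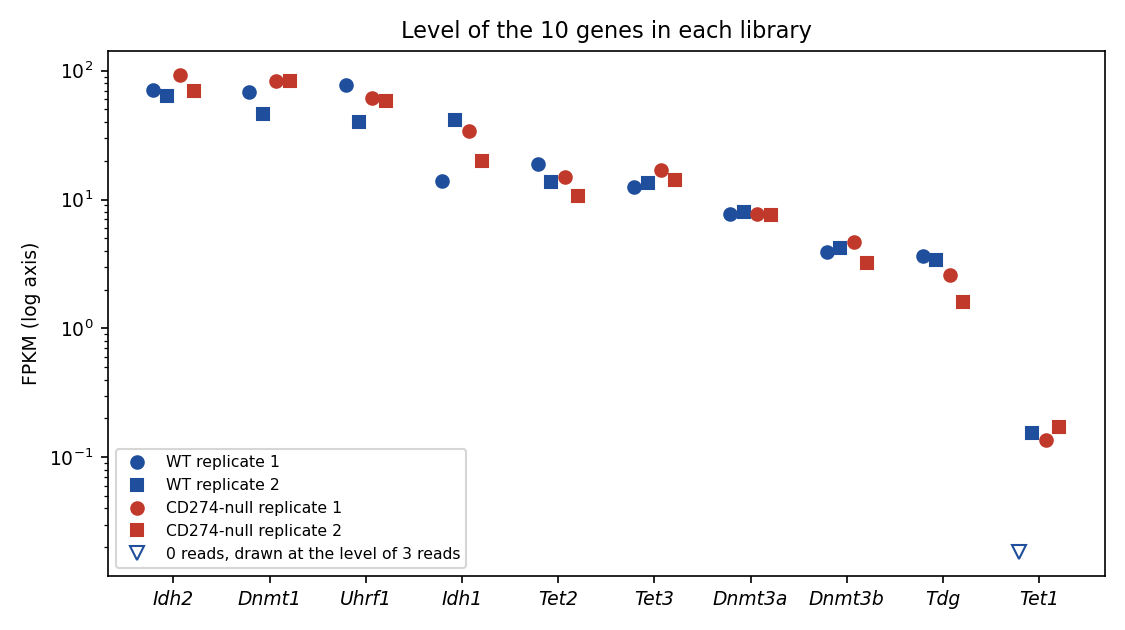
FPKM of the 10 genes in each library on a log axis, blue for the 2 WT libraries and red for the 2 CD274-null libraries, with circles for replicate 1 and squares for replicate 2. The open triangle marks the library without a Tet1 read, drawn at the level of 3 reads (0.0184 FPKM). Idh2, Dnmt1 and Uhrf1 sit at the top and Tet1 at the foot, and Idh1 spans 14.0 to 41.5 FPKM within the WT libraries.

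None of the genes was called as changed. With limma on log2(FPKM + 0.5) and the study's thresholds (a fold change above 1.5 with an unadjusted p under 0.01), 0 of the 9 genes abundant enough to test were called, beside 3.63% of the 13230 genes tested, of which 316 (2.39%) were higher and 164 (1.24%) lower in CD274-null. That split was 253 and 210 after quantile normalization, 247 and 200 with equal medians, and 202 and 184 after correction for transcript GC content. None of the 9 had an unadjusted p under 0.05, beside 13.7% of all genes, and limma-voom on recovered reads also called 0. Their Benjamini-Hochberg adjusted p from limma ran from 0.385 for Dnmt1 to 0.982 for Dnmt3a. The groups did not overlap for 3 of the 9, which were Dnmt1, Tet3 and Tdg, or 33.3% beside 47.3% of all genes tested. Dnmt1 and Tet3 were the higher ones, a direction held by 25.6% of all genes, and Tdg was lower, as were 21.8%. With 2 libraries against 2, an exact two-sided permutation test of a single gene cannot give a p below 0.333. The intervals of the differences were wide, and they allow changes of more than 1.5-fold in at least 1 direction for each of the 9 genes.

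**Figure D2:**
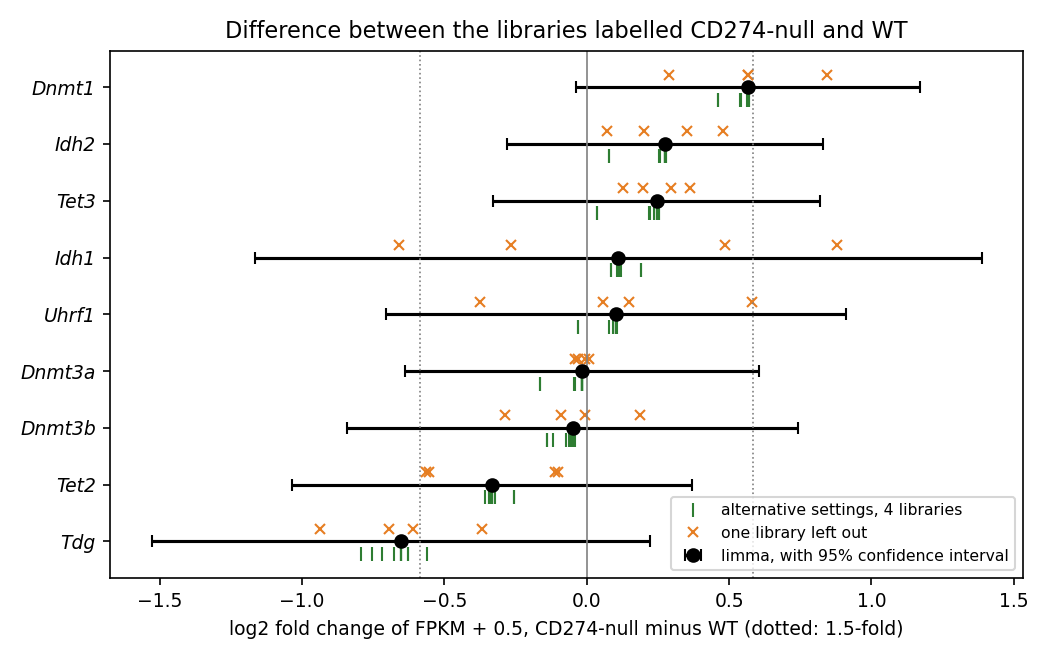
Log2 fold change of the 9 tested genes, CD274-null against WT on log2(FPKM + 0.5), as a black point with its 95% interval from limma; green ticks give the alternative settings over the 4 libraries, orange crosses the fits with 1 library left out, and dotted lines a 1.5-fold change. Every interval includes 0, from Dnmt1 at 0.57 (-0.04 to 1.17) to Tdg at -0.65 (-1.53 to 0.22).

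Positions are given on GRCm38.p6. Dnmt1, the maintenance methyltransferase (NCBI gene 13433, chr9:20907206-20959888), was at 68.4 and 46.3 FPKM in the libraries labelled WT and at 83.5 and 83.6 FPKM in those labelled CD274-null. Both CD274-null libraries were above both WT libraries and were alike, whereas the WT libraries were spread (57.3 ± 15.6 against 83.5 ± 0.0774 FPKM, mean ± SD, n = 2 each). The log2 fold change was 0.57 with a standard error of 0.25, and the adjusted p from limma was 0.385. These levels came from 2970 to 5246 reads per library, and the Poisson intervals of the reads alone were 44.6 to 48.0 FPKM in WT replicate 2 and 66.5 to 70.3 FPKM in WT replicate 1, so that the gap between the WT libraries exceeded counting error. Without WT replicate 2 the log2 fold change of Dnmt1 was 0.29, and without WT replicate 1 it was 0.85. After GC correction over the 4 libraries it was 0.46 (unadjusted p = 0.125 from limma).

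Uhrf1, the hemimethyl-CpG reader that brings DNMT1 to replicated DNA (NCBI gene 18140, chr17:56303337-56323486), overlapped between the labels. It was at 77.4 and 39.7 FPKM under WT and at 61.5 and 57.7 FPKM under CD274-null, so both CD274-null libraries fell between the WT libraries. The log2 fold change was 0.10 with a standard error of 0.33 and an interval of -0.71 to 0.91 (adjusted p = 0.916 from limma). Its direction rested on single libraries: without WT replicate 1 the fold change was 0.58, and without WT replicate 2 it was -0.38. Of the 50-base stretches of the Uhrf1 transcript, 15.4% also occur in the pseudogenes Gm5648 and Gm15953, so part of its reads could be split between copies.

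Both genes are known for expression in S phase, and the 19 replication genes listed for comparison (Mcm genes and their partners) were also unequal between the WT libraries, with summed values of 1434 and 927 FPKM under WT and 1342 and 1305 FPKM under CD274-null. Per 1000 FPKM of that sum, Uhrf1 stood at 54.0 and 42.8 under WT and at 45.8 and 44.2 under CD274-null, which overlapped. Dnmt1 stood at 47.7 and 49.9 under WT and at 62.2 and 64.0 under CD274-null. On this scale the WT libraries were close together and the ratio of the group means was 1.29. No other list of genes was used as a scale. Outside that list, Top2a, a topoisomerase of dividing cells, was at 66.3 and 47.0 FPKM under WT and at 101.7 and 107.9 FPKM under CD274-null and was called higher (log2 fold change 0.90), whereas the proliferation marker Mki67 did not pass (88.90 and 72.1 FPKM against 88.97 and 102.04, log2 fold change 0.25). The ratio of Dnmt1 to Uhrf1 was 0.883 and 1.17 under WT and 1.36 and 1.45 under CD274-null. It was higher in both CD274-null libraries, but it was 1 of 5 ratios computed after the values had been seen and was not tested.

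The promoters of this pair are shown because both genes are known targets of E2F factors, which act at the start of S phase. RefSeq lists 3 starts for Dnmt1 and 2 for Uhrf1 on GRCm38.p6, and the windows below are the 250 bases before 1 start of each gene, chosen among those without an exonic base. The Dnmt1 window lies at chr9:20959889-20960138 on the minus strand, before the most upstream start, and the Uhrf1 window at chr17:56304063-56304312 on the plus strand, inside the gene. Both are written 5′ to 3′ on the gene's strand with CpG dinucleotides in capitals.
Dnmt1: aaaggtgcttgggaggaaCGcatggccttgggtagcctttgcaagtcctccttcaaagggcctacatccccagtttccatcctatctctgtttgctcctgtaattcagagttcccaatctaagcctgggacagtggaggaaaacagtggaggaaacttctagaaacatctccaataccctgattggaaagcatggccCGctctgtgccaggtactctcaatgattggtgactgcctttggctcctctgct
Uhrf1: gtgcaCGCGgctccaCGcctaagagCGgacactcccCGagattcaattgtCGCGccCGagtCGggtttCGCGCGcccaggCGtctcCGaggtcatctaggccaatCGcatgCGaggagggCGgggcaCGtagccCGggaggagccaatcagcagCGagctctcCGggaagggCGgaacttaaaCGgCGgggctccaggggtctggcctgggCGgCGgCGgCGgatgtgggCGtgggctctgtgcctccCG
The Dnmt1 window holds 2 CpGs and the Uhrf1 window 30, where the median over 32851 RefSeq windows of that length was 6. The windows not shown hold 7 and 26 CpGs for Dnmt1 and 10 for Uhrf1, the one with 26 being the Dnmt1 window with the motif below. The contrast of 2 and 30 CpGs therefore depends on the windows chosen. Which start these cells use was not tested. The E2F motif TTTNNCGC, which itself contains a CpG and was searched on both strands, occurs in the Uhrf1 window shown, in the other Uhrf1 window and in 1 of the 3 Dnmt1 windows, though not in the one shown. It occurs in 4.28% of all windows, and among the 16 windows of the 10 genes it was found in these 3. The CCAAT box occurs in both windows shown and in 33.8% of all windows.

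The de novo methyltransferases were level between the labels. Dnmt3a (NCBI gene 13435, chr12:3801559-3914443) was at 7.66 and 7.95 FPKM under WT and at 7.77 and 7.63 FPKM under CD274-null. Its highest library was 1.04 times its lowest, and 0.0695% of the genes tested had a smaller span. Its log2 fold change was -0.02, but its interval ran from -0.64 to 0.61, since limma shares the spread across genes of like abundance, and each level rested on 677 to 873 reads. The adjusted p was 0.982 from limma. After GC correction the log2 fold change of Dnmt3a was -0.17.

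Dnmt3b (NCBI gene 13436, chr2:153649411-153687730) was lower in level than Dnmt3a in each library and less steady. It was at 3.92 and 4.18 FPKM under WT and at 4.68 and 3.23 FPKM under CD274-null, and the WT libraries fell between the CD274-null libraries. Its log2 fold change was -0.05 with an interval of -0.84 to 0.74, from 139 to 196 reads per library, and -0.14 after GC correction. The rodent germline copy Dnmt3c shares the 9.81% of Dnmt3b 50-base stretches that occur elsewhere. The ratio of Dnmt3a to Dnmt3b was 1.95 and 1.90 under WT and 1.66 and 2.36 under CD274-null, which overlapped. Dnmt1 made up 79.2 to 88.5% of the summed FPKM of the methyltransferases. Its ratio to Dnmt3a was 8.92 and 5.82 under WT and 10.7 and 10.9 under CD274-null.

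Among the dioxygenases, LICs of both labels expressed Tet2 and Tet3, while Tet1, known for embryonic stem cells, was nearly silent. Tet1 (NCBI gene 52463, chr10:62804570-62887469) was listed at 0 in WT replicate 1 and at 0.153, 0.137 and 0.171 FPKM in WT replicate 2 and the CD274-null libraries, from 0, 22, 17 and 24 reads. Its mean was below the 0.5 FPKM needed for the test. In WT replicate 1 a count of 0 allows up to 3 reads or 0.0184 FPKM, below the level in each of the other libraries, so the library of the same label stood with the CD274-null libraries and not with its partner.

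Tet2, the dioxygenase gene most often mutated in myeloid disease (NCBI gene 214133, chr3:133463677-133545136), was at 18.7 and 13.6 FPKM under WT and at 14.9 and 10.7 FPKM under CD274-null. The groups overlapped, since CD274-null replicate 1 was above WT replicate 2. The log2 fold change was -0.33 with a standard error of 0.29 (adjusted p = 0.634 from limma). Tet3 (NCBI gene 194388, chr6:83362373-83457208) was at 12.5 and 13.4 FPKM under WT and at 16.8 and 14.2 FPKM under CD274-null, so both CD274-null libraries were above both WT libraries. Its log2 fold change was 0.25 with a standard error of 0.24 (adjusted p = 0.670 from limma), and it was 0.03 once fold changes were corrected for transcript GC content. Tet3 is 57.2% GC and Tet2 45.5%.

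The family total differed little between the labels, and the Tet2 share was lower under CD274-null. The 3 TET genes summed to 31.3 and 27.2 FPKM under WT and 31.8 and 25.1 FPKM under CD274-null. Tet2 made up 59.9% and 50.1% of that sum under WT against 46.7% and 42.5% under CD274-null, a mean difference of -10.4 percentage points. Leaving out 1 library at a time gave differences of -15.3 to -5.46 points. The sign could not turn, because both CD274-null shares lay below both WT shares. The ratio of Tet2 to Tet3 was 1.496 and 1.01 under WT and 0.884 and 0.748 under CD274-null. The groups did not overlap on either scale, as for 47.3% of single genes tested, and these shares were not tested. Part of the contrast moved with GC correction, under which the log2 fold changes were -0.26 for Tet2 and 0.03 for Tet3.

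**Figure D3:**
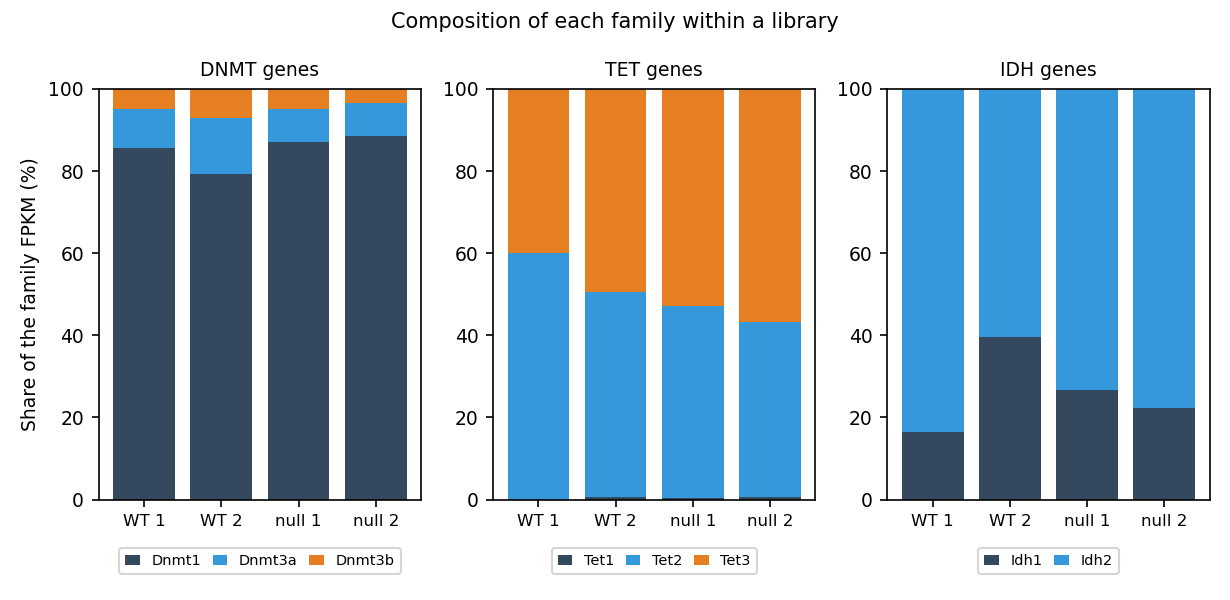
Share of each gene in the summed FPKM of its family, as stacked bars that run from 0 to 100% in each of the 4 libraries, for the DNMT, TET and IDH genes. The Tet2 share is 59.9% and 50.1% for WT against 46.7% and 42.5% for CD274-null, while the Idh1 share runs from 16.6% to 39.6% within WT.

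The Tet2 promoter is shown for its content of CpGs, the sites at which these enzymes act. The window is the 250 bases before the RefSeq start, at chr3:133544391-133544640 of GRCm38.p6 on the minus strand, inside the annotated gene without an exonic base, 5′ to 3′ with CpG dinucleotides in capitals.
Tet2: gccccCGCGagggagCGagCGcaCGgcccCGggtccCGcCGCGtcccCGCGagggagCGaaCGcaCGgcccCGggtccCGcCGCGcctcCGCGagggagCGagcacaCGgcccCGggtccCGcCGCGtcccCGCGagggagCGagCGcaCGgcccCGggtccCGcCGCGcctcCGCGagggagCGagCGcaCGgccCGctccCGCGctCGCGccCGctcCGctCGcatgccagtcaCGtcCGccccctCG
It holds 51 CpGs and 99.9% of all windows hold fewer, whereas the windows of the other 9 genes held 2 to 40. It contains neither TTTNNCGC nor CCAAT. Methylation was not measured in these libraries.

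Tdg, the glycosylase that removes the oxidised bases TET enzymes make (NCBI gene 21665, chr10:82629814-82650799), had the most negative fold change of the 9 tested genes. It was at 3.63 and 3.39 FPKM under WT and at 2.60 and 1.59 FPKM under CD274-null. Both CD274-null libraries were below both WT libraries (3.51 ± 0.169 against 2.10 ± 0.713 FPKM, mean ± SD, n = 2 each). The log2 fold change was -0.65 with a standard error of 0.36 and an interval of -1.53 to 0.22, and the adjusted p from limma was 0.463. The levels rested on 51 to 135 reads, the fewest of the 9 tested genes.

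For Tdg the counting matters, because 41.2% of its 50-base stretches also occur in the pseudogene copies Tdg-ps, Gm9855 and Gm5597 or in the antisense neighbour Glt8d2. Tdg-ps was at 1.02 and 1.09 FPKM under WT and at 0.536 and 0.238 FPKM under CD274-null, and Tdg-ps2 at 1.52 and 2.20 under WT and at 0.703 and 0.763 under CD274-null. Both copies were lower in both CD274-null libraries, from 3 to 65 reads each. Summed over Tdg and these copies, 201 and 190 reads were recovered under WT and 98 and 76 under CD274-null, or 17.4 and 18.7 against 11.1 and 7.63 RPM when scaled to mapped reads, so the groups did not overlap for the sum either. Glt8d2 overlaps Tdg and was at 0.327 to 1.32 FPKM, with groups that overlapped; whether the counting used strand is not given in the sources used here.

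The IDH genes differed in steadiness. Idh2, the mitochondrial enzyme (NCBI gene 269951, chr7:80094845-80118608), had the highest mean of the 10 genes, though Uhrf1 was above it in WT replicate 1 and Dnmt1 in CD274-null replicate 2. It was at 70.4 and 63.3 FPKM under WT and at 93.3 and 70.2 FPKM under CD274-null. The groups overlapped narrowly. Its difference on the log2 scale was 0.28 with a standard error of 0.23 (adjusted p = 0.617 from limma) and 0.08 after GC correction, the transcript being 56.6% GC.

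Idh1, the cytosolic enzyme (NCBI gene 15926, chr1:65158616-65186479), was at 14.0 and 41.5 FPKM under WT and at 34.0 and 20.02 FPKM under CD274-null. The WT libraries were the lowest and the highest, and their reads, 394 and 1031, gave Poisson intervals of 12.6 to 15.4 and 39.0 to 44.1 FPKM. The span of 2.97 times between libraries was therefore within 1 label and larger than counting error. Its difference on the log2 scale was 0.11 with an interval of -1.17 to 1.39, the widest of the 9 genes. Its sign turned when 1 library was left out, to -0.66 without WT replicate 1 and -0.27 without CD274-null replicate 1. Idh1 made up 16.6% and 39.6% of the summed IDH transcripts under WT and 26.7% and 22.2% under CD274-null. WT replicate 1, with the lowest Idh1, also had the highest neutrophil marker sum (43900 FPKM) and the lowest Kit (6.59 FPKM), and WT replicate 2, with the highest Idh1, had the lowest neutrophil sum (8863 FPKM); their part in the Idh1 values was not tested.

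**Figure D4:**
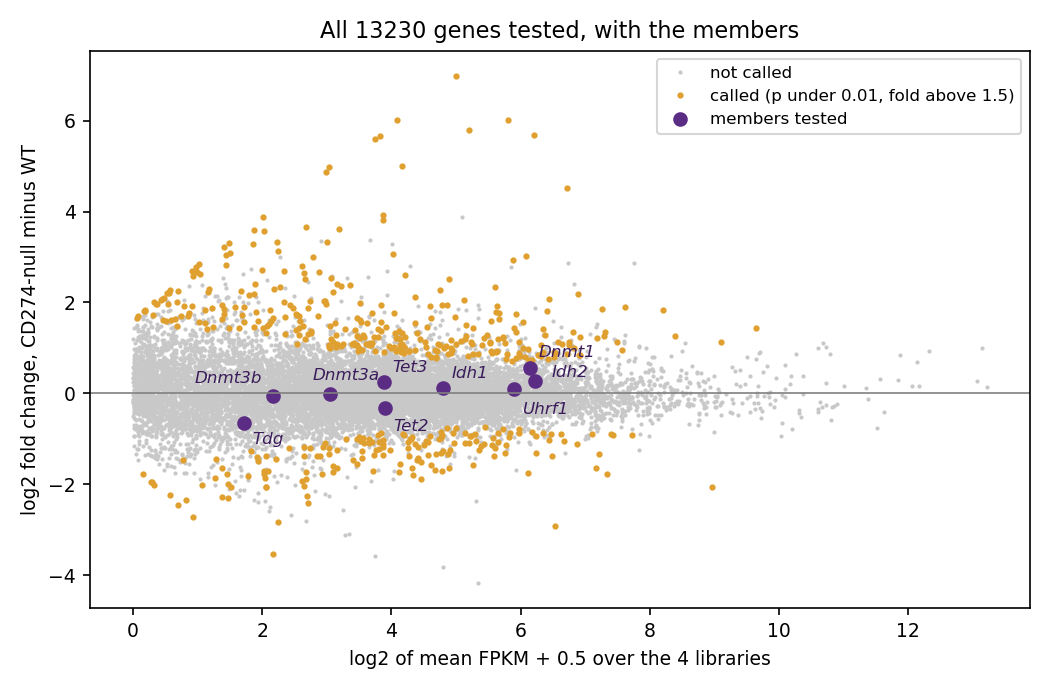
Log2 fold change, CD274-null against WT, against mean log2 FPKM for the 13230 genes tested (grey), with called genes in yellow and the 9 tested methylation and IDH genes (members) in purple with their names. The labelled genes lie among the uncalled genes, between -0.65 for Tdg and 0.57 for Dnmt1.

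The genes around these enzymes were described by 10 lists that hold 182 genes, 138 of them tested. Of the 138, 1 gene was called and 12 had an unadjusted p under 0.05, beside 3.63% and 13.7% of all genes tested. None of the 138 had an adjusted p under 0.05 in limma, beside 0.0756% of all genes. The median log2 fold change over them was 0.03 and that over all genes 0.01. These values over all genes are the comparison for each list below. Fold change rose with transcript GC content over the 12403 tested genes with a GC value (Spearman correlation 0.24). The list medians were not corrected for it. The called gene was Mcts2, an imprinted retrogene copy of Mcts1, at 5.52 and 4.55 FPKM under WT and at 10.05 and 10.9 FPKM under CD274-null. Its log2 fold change was 0.99, its limma p of 0.00987 lay just inside the threshold, its adjusted p was 0.274, and as a near copy of Mcts1 its reads may be split between the genes. The call was lost in 13 alternatives, each fit with 1 library left out among them (p 0.0161 to 0.0843 from limma), and its fold change stayed between 0.87 and 1.12.

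Methylation readers carry the mark's signal to chromatin. Of 8 tested, 0 were called and 1 had an unadjusted p under 0.05 in limma, beside 3.63% and 13.7% of all genes tested. The median log2 fold change was -0.37, beside 0.01 over all genes, with 6 of 8 below 0. Mbd2, the reader with the highest level, was at 120 and 100.3 FPKM under WT and at 85.1 and 77.8 FPKM under CD274-null. Zbtb38, a zinc finger protein that binds methylated DNA, had the lowest p of the list, at 9.70 and 20.05 FPKM against 7.32 and 4.81. Both were lower in both CD274-null libraries, and neither passed the test (adjusted p of Zbtb38 0.329 from limma). The log2 fold change of Zbtb38 was -1.17, and it was -1.67 without WT replicate 1 and -0.66 without WT replicate 2.

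The cofactors of the methyltransferases gave 0 calls among 12 tested, with a median of 0.18. Dnmt3l, the catalytically inactive partner of the de novo enzymes, had the lowest p of them and was at 4.59 and 7.35 FPKM under WT and at 3.48 and 2.93 FPKM under CD274-null. The replication clamp Pcna, the cofactor with the highest level, was at 172 and 113 FPKM against 134 and 178, which overlapped. Among 19 replication genes 0 were called and 15 had a fold change above 0, with a median of 0.22 and groups apart for 5, beside 47.3% of all genes tested. The helicase subunit Mcm6, the highest of them, had a log2 fold change of 0.24 (0.036 to 0.45 with 1 library left out), and Mcm3, with the lowest p, one of 0.47 (0.28 to 0.65).

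On the removal side, partners of the TET enzymes gave 0 calls among 8 tested and base excision repair genes 0 among 14, with medians of 0.03 and 0.11. Ddb1, a ubiquitin ligase subunit and the highest TET partner, had a log2 fold change of -0.11. Usp21, a deubiquitinase, was at 10.5 and 9.39 FPKM under WT and at 16.7 and 17.4 FPKM under CD274-null (log2 fold change 0.75, adjusted p = 0.299 from limma). Neil1, a glycosylase that can act beside TDG, was at 2.51 and 2.10 FPKM against 4.25 and 5.32. It was higher in both CD274-null libraries, by 0.91 on the log2 scale (adjusted p = 0.333 from limma), whereas Tdg was lower in both. Gadd45b, a stress-induced factor linked to active demethylation, was at 193 and 126 FPKM against 220 and 440.

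Genes of 2-oxoglutarate metabolism, which surround the IDH step, gave 0 calls among 25 tested, beside 3.63% of all genes tested. The median log2 fold change was -0.24, beside 0.01 over all genes, with 19 below 0 and 6 above. An unadjusted p under 0.05 in limma was reached by 2 of them, beside 13.7% of all genes tested. Got1, the cytosolic aspartate aminotransferase that makes or uses 2-oxoglutarate, was at 39.0 and 27.7 FPKM under WT and at 21.1 and 12.3 FPKM under CD274-null. Both CD274-null libraries were lower, by 1.003 on the log2 scale, with an adjusted p of 0.312 from limma and a range of -1.38 to -0.63 with 1 library left out. With the replicate block Got1 was called, with and without GC correction. Sdhd, a succinate dehydrogenase subunit and the highest of the list, had a log2 fold change of -0.27 (-0.48 to -0.064 with 1 library left out). Genes of S-adenosylmethionine and one-carbon metabolism, the source of the methyl group, gave 0 calls among 21 tested with a median of -0.13. In that list Mat2a, the synthase of S-adenosylmethionine, was the highest at 162 and 48.5 FPKM under WT and 99.0 and 132 under CD274-null, and Mthfd1l, a mitochondrial folate enzyme, was at 48.3 and 36.3 against 30.4 and 17.7.

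Genes that promoter methylation is known to silence gave no called germline gene. Of 20 germline genes 8 were at 0 in all 4 libraries and 3 could be tested, with 0 called. Dpep3, the germline gene with the lowest p and the highest level, was at 2.11 and 2.28 FPKM under WT and at 1.28 and 0.0597 FPKM under CD274-null. Of 30 imprinted genes 11 could be tested, and Mcts2 was the one called. Gnas, the highest imprinted gene, had a log2 fold change of 0.38 (0.090 to 0.67 with 1 library left out, and 0.18 after GC correction).

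The other chromatin genes mutated in AML gave 0 calls among 17 tested and 3 with an unadjusted p under 0.05 in limma. Over all genes tested these shares were 3.63% and 13.7%. The median of the 17 genes was -0.18. Their groups did not overlap for 15 of 17, beside 47.3% of all genes tested. Stag2, a cohesin subunit, was at 64.4 and 76.0 FPKM under WT and at 44.2 and 39.3 FPKM under CD274-null (adjusted p = 0.284 from limma). Rad21, another cohesin subunit and the list's highest gene, was at 148 and 133 FPKM against 96.1 and 80.3 (adjusted p = 0.303 from limma). Bcorl1, a BCL6 corepressor-like gene, was at 2.23 and 2.98 FPKM against 6.07 and 5.75 and had the largest absolute log2 fold change of the list, 1.06 (adjusted p = 0.295 from limma).

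**Figure D5:**
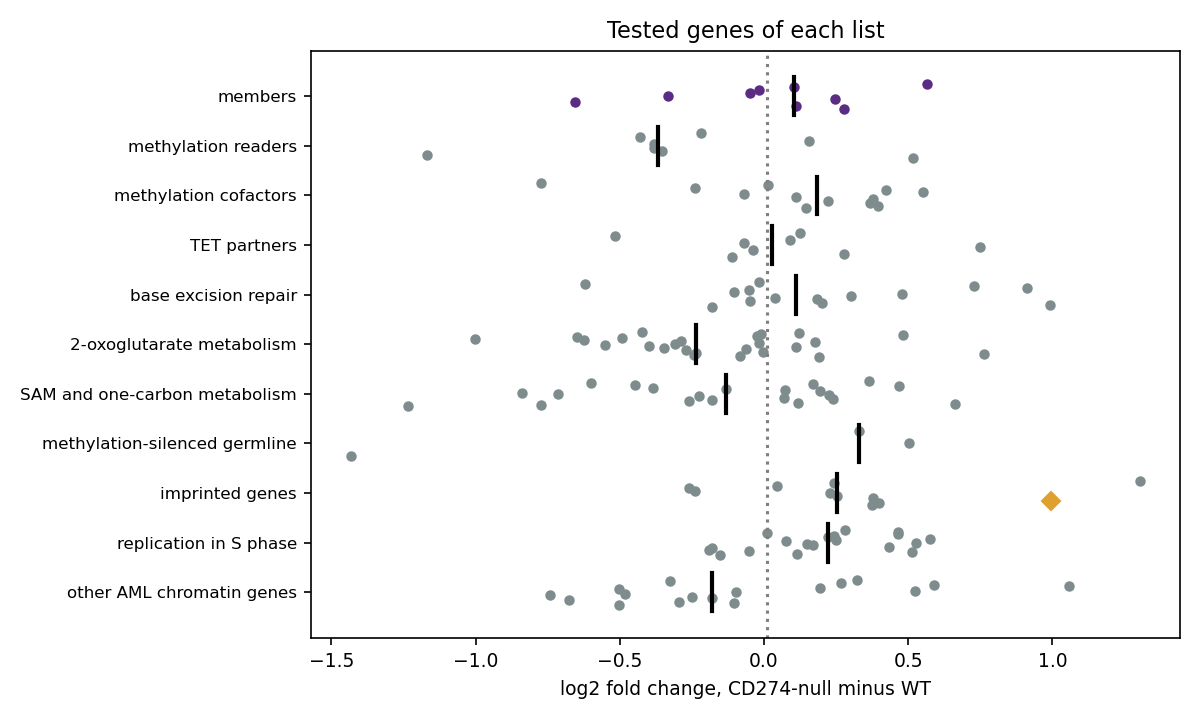
Log2 fold change, CD274-null against WT, of every tested gene in each of the 10 lists and of the 9 tested methylation and IDH genes (top line, members), 1 point a gene with a bar at each median, a diamond for the called gene and a dotted line at the median of all genes. The medians run from -0.37 for methylation readers to 0.33 for the 3 tested germline genes, and the median of the 9 genes is 0.10.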

How the data were processed

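Total RNA of LICs was prepared with the TruSeq v2 kit and sequenced on a HiSeq2500. The authors aligned reads of about 50 bases to GRCm38 with TopHat2 2.0.12 (CASAVA 1.8.2 is also listed) and deposited FPKM per gene. The program that computed FPKM and its use of strand are not given in the sources used here. The table names genes by NCBI number, and 25275 of 27179 (93.0%) were matched to a symbol.

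All 4 libraries entered limma 3.58.1 (R 4.3.3) with trended moderation on log2(FPKM + 0.5), for 13230 genes with a mean of at least 0.5 FPKM, with Benjamini-Hochberg adjustment over all of them. A called gene had a fold change above 1.5 in either direction with a two-sided p under 0.01 before adjustment. Fold changes on this scale understate the change of low genes. Whole reads were recovered: for all 17083 genes above 0 in at least 2 libraries, FPKM gave whole reads within 1e-04, with 8693008 to 11381313 reads per library summed over these genes. Poisson intervals (95%) cover counting error only, since the reads carry no molecular identifiers. The FPKM values are not counts, so limma-voom on the recovered reads served as an alternative.

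On simulated reads, limma called 99.0% of genes changed 4-fold, 55.1% of those changed 2-fold and 0.979% of unchanged genes, with 13063 genes tested. The simulation gave every gene the same dispersion and no difference in composition between libraries of a label. These shares therefore need not hold for the real libraries. Promoter windows came from the RefSeq table of GRCm38.p6 (Python 3.11.15), positions and exons from its gene annotation. All 10 genes had a window. Named genes were the 10, Cd274, Kit, Itgam, called pathway genes, in each list the gene with the highest mean and that with the lowest p, and the highest markers; others were named after their values were seen (the copies and neighbour of Tdg, Top2a, Mki67, Bcorl1, Mpo, Ctsg and further markers). The genes and lists were chosen with earlier results of these data known. Alternatives were other pseudocounts, filters, scalings and moderation, a replicate block, GC correction, and each library left out. Results of the B cell list as a whole are not reported here.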

Additional observations from a re-analysis of the deposited data

How the results depend on the processing

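None of the 10 genes was called under any alternative run. Over the refits of the 9 tested genes, 135 values kept their direction and their side of the threshold and 7 turned in sign. Uhrf1 became -0.033 with GC correction, with or without the replicate block, and ranged from -0.38 to 0.58 with 1 library left out. Ranges with 1 library left out that crossed 0 were -0.66 to 0.88 for Idh1, -0.29 to 0.19 for Dnmt3b, -0.042 to 0.0075 for Dnmt3a, -0.16 to 0.45 for Pcna (-0.06 without CD274-null replicate 2), -0.30 to 0.079 for Ddb1, -0.50 to 1.23 for Mat2a and -15.1 to 7.90 points for the Idh1 share. Idh1 was -0.27 without CD274-null replicate 1. Dnmt1 (0.29 to 0.85), Tet2 (-0.56 to -0.10), Tet3 (0.13 to 0.36), Idh2 (0.07 to 0.48) and Tdg (-0.94 to -0.37) kept their sign. For Dnmt1, Tet3 and Tdg it could not turn with 1 library left out, since their groups did not overlap.

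Genes called among all tested numbered 480, 170 without moderation and 147 to 634 with 1 library left out. Pathway genes called numbered 1, 0 with a pseudocount of 1, a mean of at least 5 FPKM, quantile normalization or no moderation, and 2 without the trend or with GC correction and the replicate block. With 1 library left out they numbered 0 to 7. A count of 1 was not always Mcts2: without a filter on low values and with equal medians Stag2 passed, with the replicate block Got1 did and without CD274-null replicate 1 Dpep3 did, while Mcts2 did not pass in these or with voom. The cause was not tested. Same-numbered libraries did not deviate together over the genes tested (correlation -0.02). With 2 libraries per label this cannot show whether the numbers pair the libraries. With the replicate block 526 genes were called. Depth limits Tet1 and Tdg most.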
